A study of Mus musculus with 2 samples.

Results

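The accessible chromatin of 7 mouse Sox genes, Sox1, Sox2, Sox3, Sox14, Sox21, Sox8 and Sox9, was examined in frontal cortex by DNase-seq, an assay that digests nuclei lightly with DNase I and sequences the ends it leaves, which gather where chromatin is open. The genes were taken by their symbols in GENCODE M21 on assembly mm10 (GRCm38) as the SoxB1 group (Sox1, Sox2, Sox3), the SoxB2 group (Sox14, Sox21) and the SoxE group without Sox10 (Sox8, Sox9), and are 7 of 21938 protein-coding genes. All tissue was from 10-day-old female mice of the hybrid B6CASTF1/J, a first-generation cross of B6 with CAST. Per the labels, 2 libraries are biological replicates 1 and 2 of 1 group. There is no treatment, mutant or second tissue, so no test between conditions was possible and each value is given for each replicate. Both libraries carry the same donor identifier and the mark "3x", which the labels do not explain. Alleles were not separated, and sequence is that of the B6 reference.

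SOX proteins bind the minor groove of DNA through a high-mobility-group domain and bend it. SoxB1 proteins hold neural progenitors in an undifferentiated state, whereas the SoxB2 proteins, which share their DNA-binding domain but act largely as repressors, promote neuronal differentiation or mark particular neuron types. Of the SoxE proteins, SOX9 is needed for the switch of neural progenitors to making glia and is kept in astrocytes, while SOX8 acts beside SOX9 and SOX10 in the oligodendrocyte lineage. In a bulk tissue, an opening in fewer cells and a weaker opening in each cell cannot be told apart.

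Sequences under the peaks follow, since they show which bases the footprints cover. Peaks are intervals of raised cutting listed by the authors for each library, and footprints are short intervals listed as protected from cutting, most of them inside peaks. Shown are 1 start-site peak of each of the 5 genes with such a peak in both replicates, and 3 distal peaks. Start-site sequences are limited to bases before the annotated transcript, and distal peaks lie over 1 kb from every annotated start site. The distal peaks were taken from the strongest shared one of each gene, as the 3 with the most bases under footprints of both replicates. In longer peaks, these bases were counted over the central 300 bases alone. Each runs 5′ to 3′ on the strand of the Sox gene, from the RefSeq copy of GRCm38.p6. Capitals mark bases under a footprint in both replicates.
Sox1 start site, chr8:12395121-12395294, plus strand: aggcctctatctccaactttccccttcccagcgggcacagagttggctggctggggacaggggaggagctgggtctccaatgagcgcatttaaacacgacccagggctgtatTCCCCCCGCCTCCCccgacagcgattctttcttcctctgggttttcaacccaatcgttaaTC
Sox2 start site, chr3:34649781-34650000, plus strand: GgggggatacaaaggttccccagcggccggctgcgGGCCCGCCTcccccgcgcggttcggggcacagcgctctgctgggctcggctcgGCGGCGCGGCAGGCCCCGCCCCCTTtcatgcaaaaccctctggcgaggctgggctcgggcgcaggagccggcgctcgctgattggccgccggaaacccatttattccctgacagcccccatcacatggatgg
Sox21 start site, chr14:118237061-118237280, minus strand: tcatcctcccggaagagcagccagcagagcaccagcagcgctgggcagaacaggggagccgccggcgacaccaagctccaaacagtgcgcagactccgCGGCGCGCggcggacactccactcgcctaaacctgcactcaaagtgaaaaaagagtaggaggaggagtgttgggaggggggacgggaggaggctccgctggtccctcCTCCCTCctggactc
Sox8 start site, chr17:25570687-25570880, minus strand: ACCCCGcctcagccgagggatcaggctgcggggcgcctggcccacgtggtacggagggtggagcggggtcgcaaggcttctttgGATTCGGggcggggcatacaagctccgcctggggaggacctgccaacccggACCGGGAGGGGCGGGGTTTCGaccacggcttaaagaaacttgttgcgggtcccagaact
Sox9 start site, chr11:112782001-112782223, plus strand: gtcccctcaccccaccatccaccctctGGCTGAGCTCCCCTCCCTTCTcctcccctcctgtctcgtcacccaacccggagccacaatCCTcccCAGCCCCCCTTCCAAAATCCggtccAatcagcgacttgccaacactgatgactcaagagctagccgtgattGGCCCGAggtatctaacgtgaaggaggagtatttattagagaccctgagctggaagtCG
Sox2 distal peak, chr3:34647841-34648000, plus strand: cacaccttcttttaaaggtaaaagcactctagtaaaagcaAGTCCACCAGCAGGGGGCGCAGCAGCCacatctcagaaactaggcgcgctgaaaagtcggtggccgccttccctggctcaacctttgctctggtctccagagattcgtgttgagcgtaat
Sox14 distal peak, chr9:99846921-99847100, minus strand: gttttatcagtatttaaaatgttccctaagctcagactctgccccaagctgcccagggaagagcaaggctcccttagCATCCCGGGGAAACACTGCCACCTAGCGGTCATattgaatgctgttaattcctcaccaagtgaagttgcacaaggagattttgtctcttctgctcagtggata
Sox9 distal peak, chr11:112779881-112780060, plus strand: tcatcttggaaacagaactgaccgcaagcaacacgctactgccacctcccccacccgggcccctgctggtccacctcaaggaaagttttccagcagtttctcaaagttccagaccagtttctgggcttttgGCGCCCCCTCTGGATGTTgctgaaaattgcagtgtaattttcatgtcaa

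In the printed start-site sequences, footprints of both replicates covered 54 bases for Sox9, 35 for Sox2, 34 for Sox8, 16 for Sox1 and 15 for Sox21. These counts do not rank the whole peaks, since the parts not printed at Sox1, Sox8 and Sox9 held further such bases. In the Sox2 start-site sequence, the SP and KLF motif CCCCGCCC at bases 102 to 109 lay wholly under footprints of both replicates. The same motif on the other strand, GGGCGGGG, lay wholly under footprints of both replicates at bases 144 to 151 of the Sox8 sequence. Other matches were less covered. The SOX core motif ACAAAG at bases 9 to 14 of the Sox2 start-site sequence lay under no footprint of either replicate. The NFI motif, read on these strands as TGCCAA, was uncovered in both replicates at bases 130 to 135 of Sox9. At bases 125 to 130 of Sox8 it was uncovered in replicate 1, with 0.333 of it covered in replicate 2. A further SP and KLF copy at bases 91 to 98 of Sox8 lay under a footprint of replicate 1, and only 0.125 of it was covered in replicate 2. SP and KLF proteins are zinc finger factors that bind GC-rich promoters. In the Sox2 distal peak, a match to the CTCF motif at bases 47 to 58 lay wholly under footprints of both replicates. CTCF is a zinc finger protein that binds boundaries of chromatin domains. Of the 3 distal sequences printed, that of Sox14 had the most such bases, 33, which form 1 footprint listed at chr9:99846991-99847023 in both replicates, base for base. The Sox14 sequence held no exact match to any of the 15 motifs searched. Near matches were not counted, so a site close to a searched motif, such as that of CTCF, is not excluded under this footprint. A match, exact or near, is a description of letters and not evidence that a factor was bound.

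The genes differ in their surroundings. Sox1 (ENSMUSG00000096014.1, chr8:12395295-12400126, plus strand), Sox2 (ENSMUSG00000074637.7, chr3:34650405-34652461, plus strand), Sox3 (ENSMUSG00000045179.9, chrX:60891366-60893430, minus strand) and Sox21 (ENSMUSG00000061517.8, chr14:118233232-118237030, minus strand) have 1 exon each. Sox14 (ENSMUSG00000053747.9, chr9:99874106-99876170, minus strand) has 3 annotated exons over 2 transcripts, Sox8 (ENSMUSG00000024176.10, chr17:25565892-25570686, minus strand) 7 over 2 transcripts and Sox9 (ENSMUSG00000000567.5, chr11:112782224-112787760, plus strand) 3. The nearest other protein-coding start lay 837.118 kb from that of Sox9 and 569.084 kb from that of Sox2, against a median of 22194.5 bp over all protein-coding genes. Sox8 was the exception, with the start of Lmf1, a lipase maturation factor, at 8.399 kb. The remaining distances were 292.128 kb for Sox3, 158.903 kb for Sox14, 116.476 kb for Sox1 and 29.93 kb for Sox21. Sox2 and Sox1 lie inside the long RNA genes Sox2ot and Sox1ot, and the divergent RNA gene BC006965 begins at -0.248 kb from the start of Sox9 (negative is upstream). In the 1 kb around the start, the ratio of observed to expected CpG dinucleotides was 0.961 for Sox2, 0.832 for Sox3, 0.805 for Sox1, 0.796 for Sox9, 0.735 for Sox21, 0.687 for Sox8 and 0.603 for Sox14. All 7 ratios exceeded the median of all protein-coding genes, 0.553.

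Peak lists held 104654 peaks in replicate 1 and 81654 in replicate 2, with a median width of 200 bp in each, and footprint lists held 293484 and 187137 intervals. The read depth behind them is not analysed here. Start sites of the cortical neuron markers Snap25, Syt1, Rbfox3, Slc17a7 and Neurod2 were open in both replicates, as was that of the forebrain marker Emx1. Astrocyte markers were open in 3 of 3 and 1 of 3, and oligodendrocyte lineage markers in 3 of 3 in each. No start site of the 3 microglia, 2 liver or 2 muscle markers was open in either replicate. Of the 2 endothelial markers, 2 were open in replicate 1 and 0 in replicate 2, and of the 2 hindbrain markers 1 and 0.

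All 7 Sox genes had a peak within 500 bp of an annotated start site in replicate 1, and 5 in replicate 2. The 5 genes open in both replicates were Sox1, Sox2, Sox21, Sox8 and Sox9. Sox3 and Sox14 were open in replicate 1 alone, the library with the longer lists. Equal numbers of peaks were also taken from both lists. The mean number of peaks over the replicates then became 2 in the Sox3 window, against 4 in the full lists. In the Sox14 window it became 2.5, against 8. The count of genes open in both replicates was again 5, but it could not rise, since the list of replicate 2 was left unchanged. In replicate 1, the start-site peak of Sox3 stood at percentile 38.2 of all peaks and that of Sox14 at 11.0. Over all protein-coding genes, 66.1% were open in replicate 1, 63.3% in replicate 2 and 62.8% in both, so 5 of 7 is close to the background. The strength of the opening separated the genes. Signal here is the authors' value for each peak, with no scale stated, and is read within 1 library.

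The SoxE genes had the strongest starts. Sox8 had a start-site signal of 4.73 in replicate 1 and 4.996 in replicate 2, at percentiles 68.4 and 64.4 among open protein-coding genes. For Sox9 the signal was 3.23 and 3.42, at percentiles 51.2 and 46.4. Both start-site peaks also lie within 500 bp of the start of an RNA gene transcribed from the other strand, 2810468N07Rik at Sox8 and BC006965 at Sox9, so the opening cannot be assigned to 1 gene of either pair. The same held for the start-site peaks of Sox21, with Gm4675, and of Sox3, with Gm14662.

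The SoxB1 genes Sox1 and Sox2 came next, and their order differed between the replicates. Sox2 had 2.93 in replicate 1 and 2.79 in replicate 2, at percentiles 47.3 and 38.3 of open genes. Sox1 had 2.84 in each, at percentiles 46.1 and 39.0. This strongest Sox1 peak lies within the gene, and the sequence printed above is from the neighbouring peak over the start, with 2.59 and 2.53. Sox3, the X-linked SoxB1 gene, stood far below Sox1 and Sox2 with 0.484 in replicate 1, at percentile 5.56, and no start-site peak in replicate 2. The single Sox3 peak of replicate 2 lay 0.861 kb downstream of the start, with 0.654, and a start window of 1000 bp counts Sox3 as open in both replicates. The Sox2 peak lies upstream of the GENCODE start, at chr3:34649781-34650000 in replicate 1. The RefSeq start of Sox2 lies at -410 bp from the GENCODE one, inside this peak. With a start window of 100 bp, which leaves this peak out, 4 of the 7 genes were open in both replicates.

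In the SoxB2 group, Sox21 had a start-site signal of 1.17 in replicate 1 and 1.20 in replicate 2, at percentiles 20.5 and 15.1 of open genes. Sox14 had 0.266 in replicate 1, at percentile 0.986, and no start-site peak in replicate 2. The medians of open genes were 3.13 and 3.73. In each replicate, Sox3 and Sox14 therefore held the lowest places among the 7, and Sox8 the highest.

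**Figure D1:**
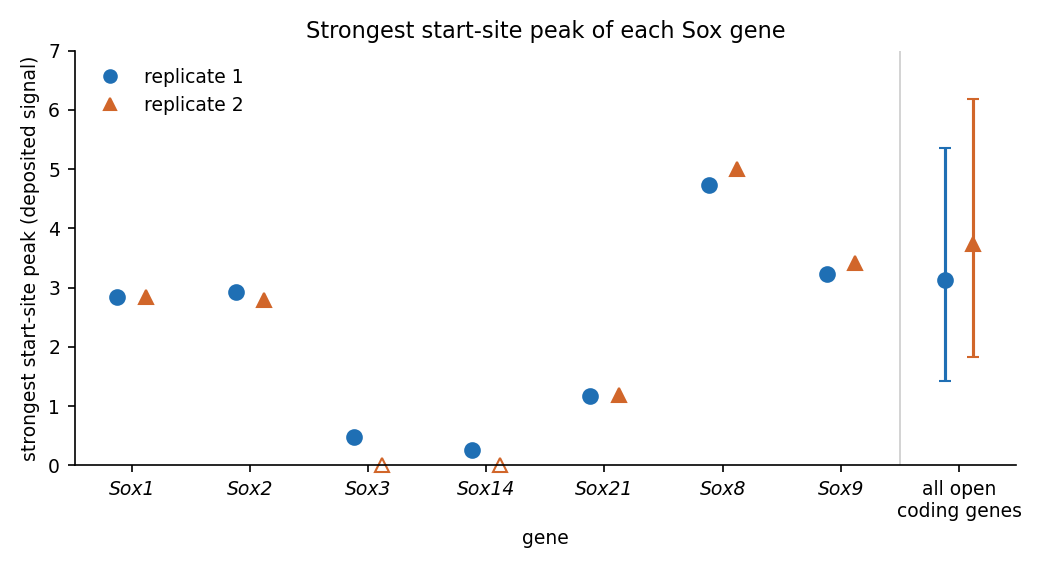
Strongest start-site peak (deposited signal, vertical axis) of each Sox gene in replicate 1 (circles) and replicate 2 (triangles), with open triangles at 0 where no peak was listed, beside the median and quartiles of open protein-coding genes (right). Sox8 lies highest with 4.73 and 4.996, and Sox3 and Sox14 have no start-site peak in replicate 2.

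The deposited cut-rate table lists bases with a false discovery rate below about 0.05 and so gives a second reading of the starts. A listed base lay within 500 bp of a start of all 7 genes in replicate 1 and of 5 in replicate 2, against 62.0% and 59.2% of protein-coding genes. Sox9 had 1001 listed bases in each replicate. Sox8 had 1001 in replicate 1 and 699 in replicate 2, Sox1 840 and 974, Sox21 821 and 788, and Sox2 183 and 116. At Sox3, 957 bases were listed in replicate 1, with a lowest rate of 1.07e-05, and 0 in replicate 2. At Sox14, 159 were listed in replicate 1, with a lowest rate of 0.0168, and 0 in replicate 2. The medians of all protein-coding genes were 515 and 412 bases.

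A weak signal at the Sox3 start went with a wide opening in replicate 1. Peaks covered 2123 bp within 2 kb of the Sox3 start in replicate 1, the widest of the 7 genes, and 58 bp in replicate 2. Sox9 was covered over 1453 and 1473 bp, Sox21 over 1415 and 1184 bp, and Sox1 over 987 and 1257 bp. Narrower openings were listed at Sox8, with 700 and 260 bp, at Sox2, with 575 and 289 bp, and at Sox14, with 185 and 0 bp. Open protein-coding genes had medians of 440 and 380 bp. Sox8, the gene with the strongest start-site peak, was thus narrower than the median in replicate 2, whereas Sox21, with a start signal under the lower quartile of open genes (1.42 and 1.83), was covered beyond the upper quartile of 745 and 660 bp in each replicate.

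A window of the gene body with 50 kb on each side was searched for further peaks. The 7 windows held 92 peaks in replicate 1 and 73 in replicate 2. Sox8 had 23 peaks in replicate 1 and 13 in replicate 2, Sox1 13 and 23, Sox14 13 and 3, Sox9 13 and 10, Sox21 12 and 13, Sox2 11 and 10, and Sox3 7 and 1. Per 100 kb, the windows of Sox1, Sox2, Sox21, Sox8 and Sox9 were above the all-gene median in both replicates, those medians being 6.10 and 5.06 peaks. Sox1 reached 12.4 and 21.9 peaks per 100 kb, at percentiles 83.5 and 99.5 of protein-coding genes. Sox8 reached 21.9 and 12.4, at percentiles 96.3 and 91.7. Sox3, with 6.86 and 0.980, and Sox14, with 12.7 and 2.94, were above the median in replicate 1 alone.

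**Figure D2:**
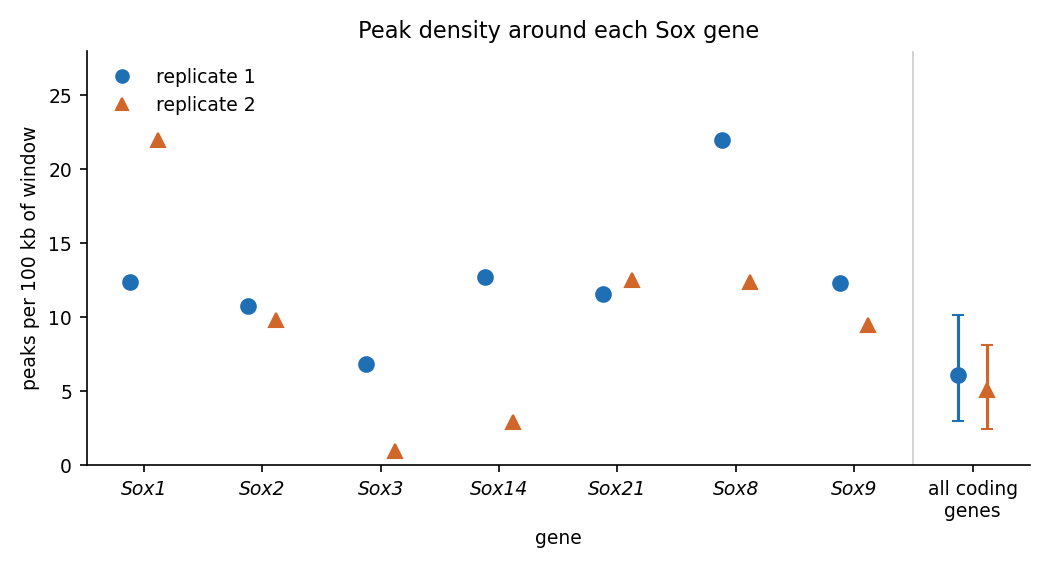
Peaks per 100 kb of the window of each Sox gene (vertical axis) in replicate 1 (circles) and replicate 2 (triangles), beside the median and quartiles over all protein-coding genes (right). Sox1 is highest in replicate 2 and Sox8 in replicate 1, each with 21.9 peaks per 100 kb.

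Of the 92 peaks of replicate 1, 34 lay within 1 kb of a start site, 9 in exons, 19 in introns and 30 between genes. In replicate 2 the numbers were 31, 10, 15 and 17. Apart from Sox8, every peak of the windows had the Sox gene as its nearest protein-coding start. At Sox8 this held for 14 of 23 peaks in replicate 1 and 7 of 13 in replicate 2, and the strongest peak of the window, with 5.93 in each replicate, was that at the start of Lmf1.

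Away from start sites, the strongest peak around Sox2 lay in an intron of Sox2ot, at -2.48 kb from the Sox2 start, where the signal reached 2.30 in replicate 1 and 3.27 in replicate 2. It is the peak whose CTCF match is printed above, and in replicate 2 it exceeded the start-site peak of Sox2. The second lay at -9.51 kb, with 1.68 in replicate 1 and 1.98 in replicate 2. A peak at -7.74 kb, near the start of the unclassified gene Gm42692, had 2.98 in replicate 1 and an overlapping peak had 3.14 in replicate 2. Beside the start-site peak, the Sox2 window thus held 3 shared upstream peaks with signals of at least 1.68 in both replicates.

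Around Sox1 the strongest distal peaks lay 5.80 kb downstream of the start in an intron of Sox1ot, with 1.24 and 1.18, and 35.1 kb downstream in an exon of Sox1ot, with 1.06 and 1.04. At Sox3, no distal peak was shared. Its 2 strongest, with 0.391 and 0.339 in replicate 1, had no overlapping peak in replicate 2. Sox14, whose start was weak, had a distal peak 29.2 kb downstream of the start, between genes, with 1.73 in replicate 1 and 1.52 in replicate 2. Its second distal peak, 7.42 kb downstream of the start, had 0.469 and 0.846.

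For Sox21 the distal peaks were weak, 0.854 and 0.688 at 5.84 kb downstream of the start and 0.703 and 0.553 at 6.42 kb. At Sox8, overlapping peaks 14.1 kb and 14.0 kb downstream of the start, in an intron of the RNA gene AC131323.3, had 2.28 and 1.87 in replicate 1. The matching peaks of replicate 2 had 2.83 and 2.38. The strongest distal peaks of Sox9 lay at -2.25 kb, with 0.979 and 1.21, and 29.1 kb downstream, with 0.870 and 0.823.

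**Figure D3:**
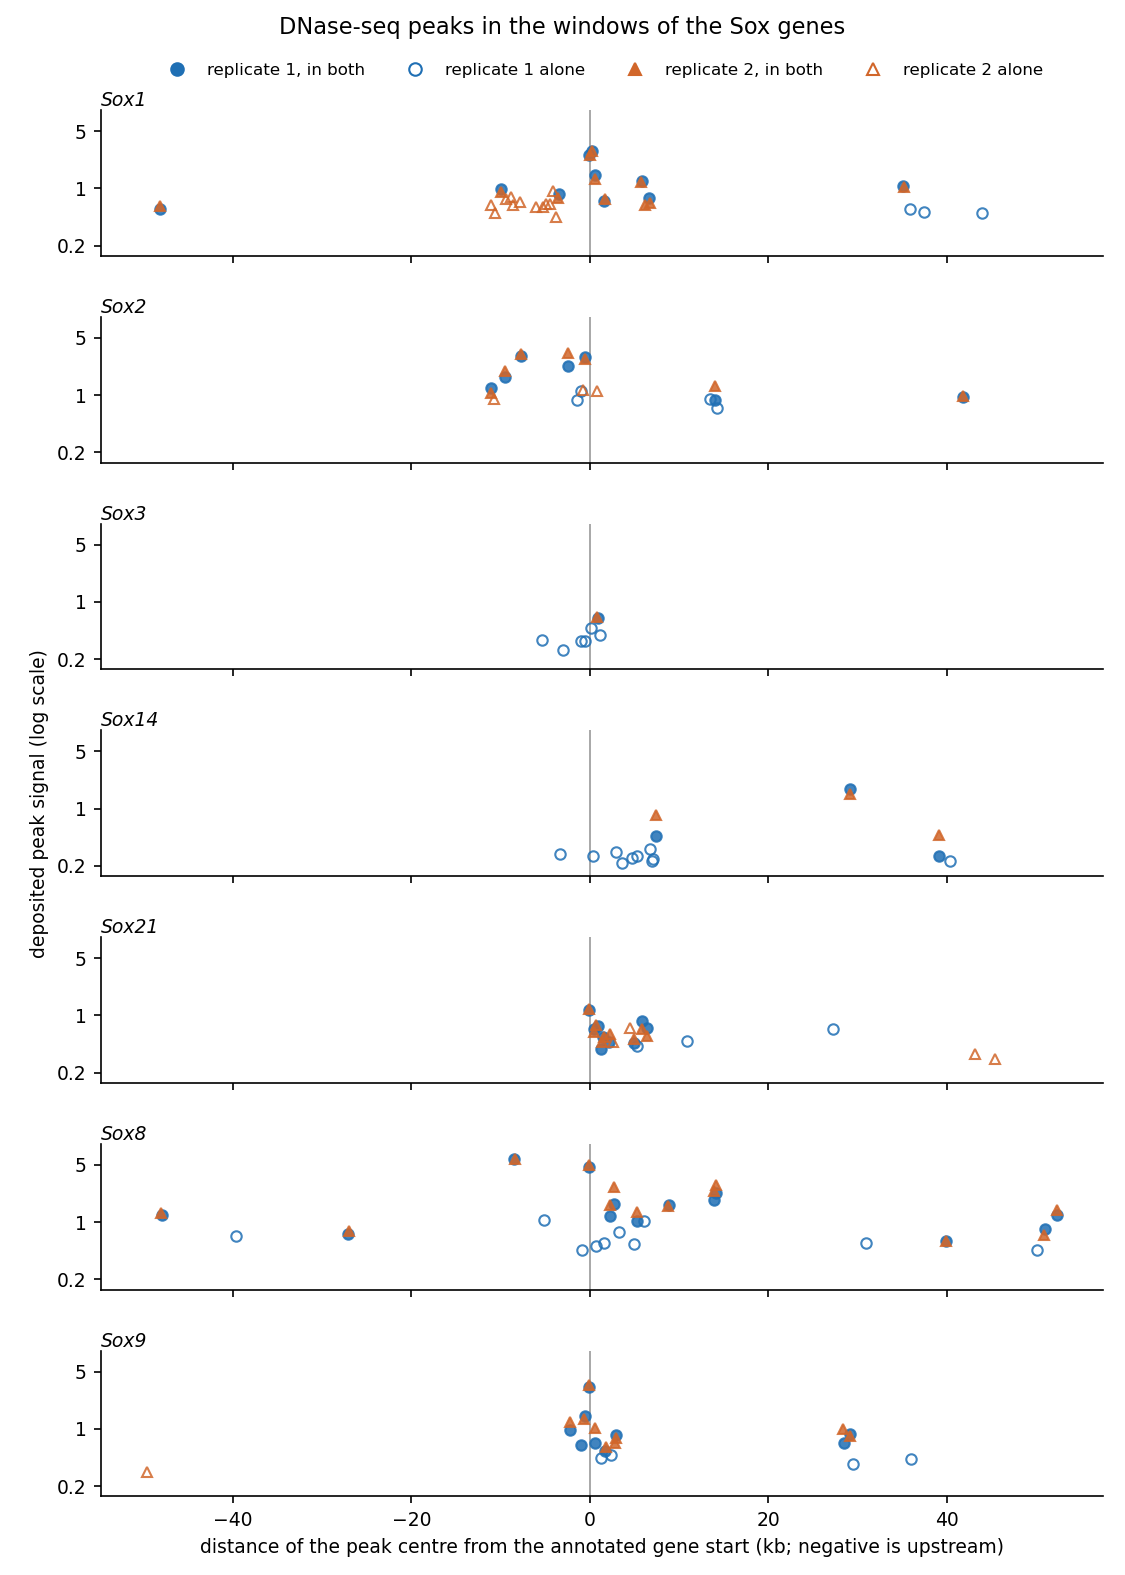
Every peak in the windows of the 7 Sox genes, by distance of its centre from the gene start (kb, horizontal) and deposited signal (log scale, vertical), for replicate 1 (circles) and replicate 2 (triangles). Filled symbols overlap a peak of the other replicate and open symbols do not, and the open triangles upstream of Sox1 and open circles downstream of Sox14 form runs.

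Of the peaks in the 7 windows, 52 of 92 in replicate 1 (56.5%) and 53 of 73 in replicate 2 (72.6%) overlapped a peak of the other replicate. Over all peaks, the shares were 64.8% in replicate 1 and 82.9% in replicate 2. Sharing differed between the genes. Every replicate 2 peak of Sox8 (13), Sox14 (3) and Sox3 (1) was shared, whereas 10 of 23 replicate 1 peaks of Sox8, 10 of 13 of Sox14 and 6 of 7 of Sox3 were listed in replicate 1 alone. Sox1 went the other way, with 3 of 13 peaks alone in replicate 1 and 12 of 23 alone in replicate 2. Without the Sox1 window, the share found in both was 53.2% of 79 peaks in replicate 1 and 84% of 50 in replicate 2.

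Sharing rose with signal, and below the highest class it was lower in the windows than over all peaks of the same class. In the lowest of 5 equal signal classes of the library, 1 of 15 peaks of the windows was shared in replicate 1 and 2 of 7 in replicate 2, against 23.9% and 52.8% of all peaks of that class. In the highest class, 16 of 16 and 11 of 11 were shared, against 98.8% and 99.6%. Of the peaks listed in 1 replicate, 6 of 40 in replicate 1 and 5 of 20 in replicate 2 had bases listed in the other replicate's cut-rate table, against 12.4% and 24.6% over all such peaks.

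**Figure D4:**
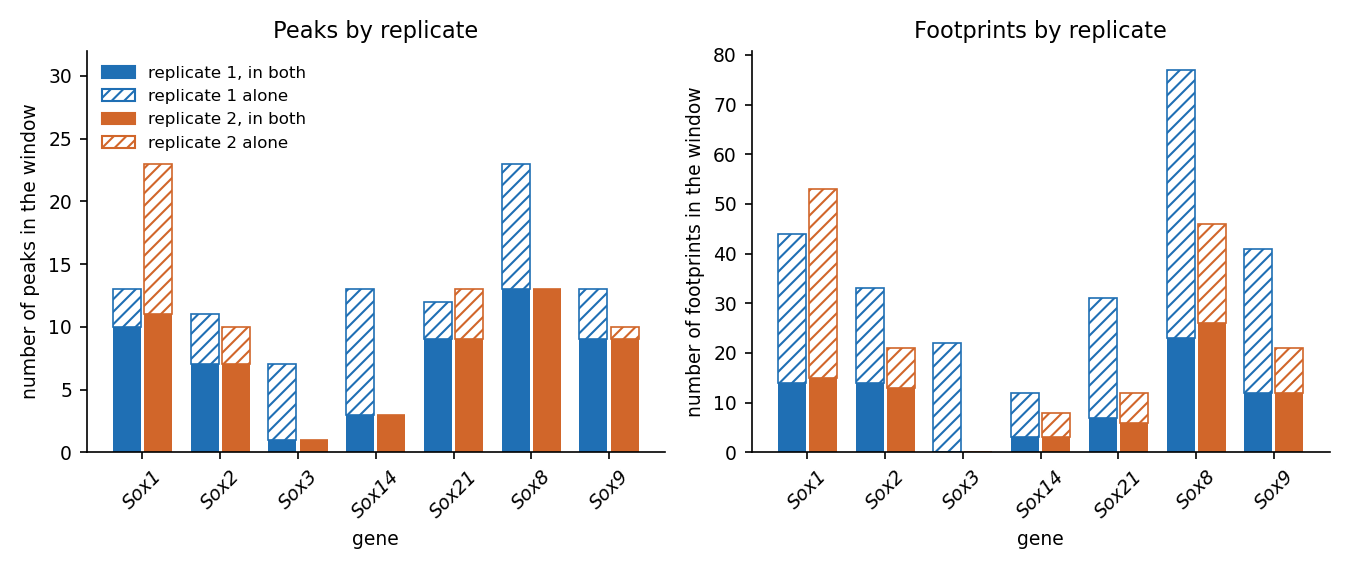
Numbers of peaks (left) and footprints (right) in the window of each Sox gene, with replicate 1 and replicate 2 as neighbouring bars. The filled part overlaps the other replicate and the hatched part does not, and the hatched part is largest for peaks at Sox1 in replicate 2, with 12 of 23.

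The 12 unshared peaks of Sox1 formed 1 run upstream of the gene. They lay at chr8:12384141-12391559 over 7.419 kb around the start of Sox1ot, each within 2000 bp of the next, with signals of 0.451 to 0.925. In 3 of the 12, bases were listed in the cut-rate table of replicate 1. In this library, 6 runs of at least 10 unshared peaks were found in replicate 2, and 2 of them held more peaks than that at Sox1. A shared peak inside the stretch, near the Sox1ot start, had 0.990 in replicate 1 and 0.913 in replicate 2, and the shared peak next to it on the Sox1 side, at -3.50 kb from the Sox1 start, had 0.859 and 0.756. In replicate 1, runs near Sox14 (7 peaks over 4.355 kb), Sox8 (6 over 7.034 kb) and Sox3 (5 over 4.204 kb) were shorter in peaks than the 182 runs of at least 10 unshared peaks listed there. The definition of a run was chosen after the values were seen, and what separates the libraries there was not tested.

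**Figure D5:**
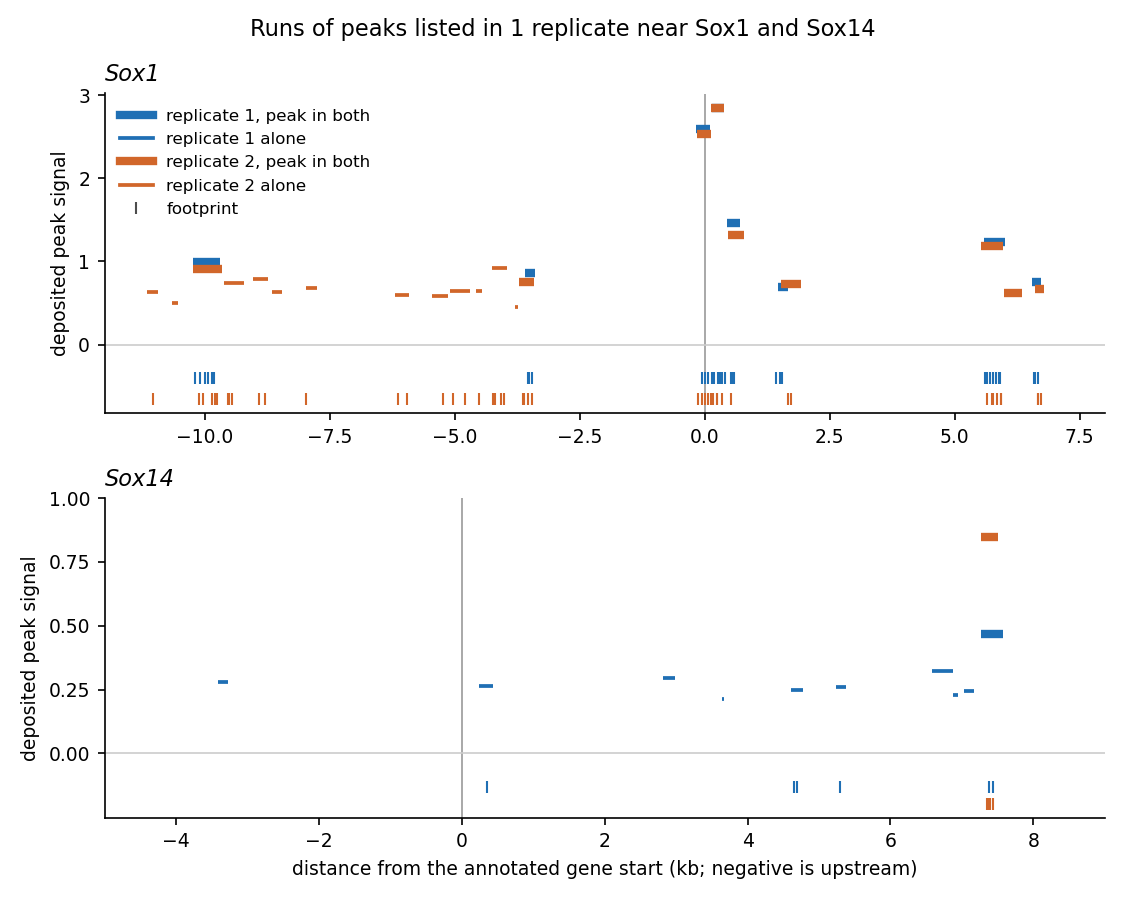
Peaks near Sox1 (top) and Sox14 (bottom) as bars of their listed width, by distance from the gene start (kb, horizontal) and deposited signal (vertical), with footprints as ticks under each axis. Thick bars overlap a peak of the other replicate and thin bars do not, bars of replicate 2 are drawn over those of replicate 1, and the 12 thin bars of replicate 2 upstream of Sox1 lie between 0.451 and 0.925.

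The 7 windows held 260 footprints in replicate 1 and 161 in replicate 2, with a median width of 9 bp in each, and 231 and 144 of them overlapped a peak. Sox8 had 77 in replicate 1 and 46 in replicate 2, Sox1 44 and 53, Sox9 41 and 21, Sox2 33 and 21, Sox21 31 and 12, Sox3 22 and 0, and Sox14 12 and 8. Sox1 alone of the 7 had more footprints in replicate 2. A footprint of the other replicate overlapped 73 of 260 in replicate 1 (28.1%) and 75 of 161 in replicate 2 (46.6%), against 37.3% and 60.3% of all footprints. Sox2 had the highest shared share of the 7, with 14 of 33 in replicate 1 and 13 of 21 in replicate 2. At Sox8, a footprint of 42 bp lay at the same bases in both replicates, chr17:25567956-25567997, in a peak over an exon of Sox8 with 1.67 and 2.67.

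Exact matches to 15 motifs were counted on both strands in the 200 bp around each peak centre. The SOX core motif, ACAAAG or ACAATG, which SOX proteins themselves bind, was found in 14 of 92 peaks of replicate 1 (15.2%) and 9 of 73 of replicate 2 (12.3%), against 19.3% and 18.6% of all peaks. E-boxes CAGCTG or CAGATG, read by basic helix-loop-helix factors, were in 20.7% and 19.2%, against 33.4% and 33.0%. The SP and KLF motif was in 7.61% and 6.85%, against 7.21% and 8.10%. The NFI motif TTGGCA, of the nuclear factor I family that acts with SOX9 in astrocyte formation, was in 16.3% and 8.22%, against 15.7% and 15.4%. The POU octamer ATGCAAAT was in 4 of 92 peaks and 2 of 73 (4.35% and 2.74%), against 1.07% and 1.19%. The long CTCF motif was in 1 peak of each replicate, the Sox2 peak above (1.09% and 1.37%), against 5.16% and 5.89%. Neither the SOX dimer nor the CRE (TGACGTCA), NRF1 or RFX motif was found in the windows. With so few peaks, 1 match moves a share by over 1 percentage point.

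The remaining short motifs were also found at few peaks. TAATTA, a homeobox motif, was in 4.35% of peaks in replicate 1 and 2.74% in replicate 2, against 2.66% and 2.47% of all peaks. GTGGGAA, bound by the Notch effector RBPJ, was in 4.35% and 4.11%, against 5.45% and 5.49%. ACCACCCA, bound by GLI factors of hedgehog signalling, was found at 0 peaks of replicate 1 and at 1 of replicate 2, against 1.20% and 1.13%. That match, at -0.803 kb from the Sox2 start, lay in the 200 bp searched but outside the listed bounds of the peak.

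The composite motif of a SOX site next to a POU octamer, known from Sox2 with POU partners, was matched in 1 peak of each replicate, 29.1 kb downstream of the Sox9 start. It was the sole exact match to the searched pattern among all 104654 peaks of replicate 1 and all 81654 of replicate 2. The match includes 1 of the POU matches counted above. Sites that differ from this pattern were not counted, so the match need not be the only composite site in open chromatin. The SOX dimer pattern was as rare, with 1 matching peak among all of replicate 1 and 0 in replicate 2. The Sox9 peak was singled out after the matches were seen. Its signal was 0.870 in replicate 1 and 0.823 in replicate 2. The sequence of the replicate 2 peak is shown with the match, bases 18 to 32, in capitals, and 0.133 of the match lay under a footprint in replicate 1 and 0 in replicate 2.
Sox9 distal peak with the SOX with POU match, chr11:112811249-112811439, plus strand: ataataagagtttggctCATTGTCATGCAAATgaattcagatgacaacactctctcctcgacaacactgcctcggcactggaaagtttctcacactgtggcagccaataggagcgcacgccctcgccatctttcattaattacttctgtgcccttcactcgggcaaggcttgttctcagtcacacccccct

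Other Sox groups were set beside the 7 genes. All 3 SoxC genes, which act in newborn neurons, were open in both replicates, with the strongest start at Sox12 (8.09 and 9.30) and the weakest at Sox11 (5.01 and 6.89), above all 7 of SoxB and SoxE. The 3 SoxD genes were also open in both, with the highest mean signal at Sox6 (1.74 and 2.46) and the lowest at Sox13 (1.27 and 1.36), although in replicate 1 Sox5 was lower still (1.10 and 1.71). Of the 3 SoxF genes, which act in endothelium, 2 were open in both, the strongest being Sox7 (0.604 and 0.744), and no start-site peak was listed at Sox18. Among Sox15, Sox30 and Sry, 2 were open in both, with the highest signal at Sox15 (1.54 and 2.26) and none at Sry.

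Among 16 genes of neural progenitors, 15 were open in replicate 1 and 14 in replicate 2. The highest start-site signal was at Pou3f3 (6.60 and 7.26), a POU factor that pairs with SOX proteins, and no start-site peak was listed at Eomes, a gene of intermediate progenitors. Of 14 glial genes, 14 and 12 were open, between Glul, glutamine synthetase, with 5.69 in replicate 1 and 6.56 in replicate 2, and Aqp4, a water channel of astrocyte endfeet, with 0.406 in replicate 1 and no start-site peak in replicate 2. Start-site signals of the 7 Sox genes in replicate 1, 0.266 to 4.73, lay within the range of these glial genes save for Sox14.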

How the data were processed

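DNase-seq of 2 libraries of 1 group, biological replicates 1 and 2 per the labels, was read from the authors' peak, footprint and cut-rate lists, called per library in mm10 per the text deposited with them. For aligner, callers, versions, thresholds and read depth, nothing is given in the sources used here. The deposited peak signal is the authors' value per peak, of unstated scaling. Rates in the deposited cut-rate tables are false discovery rates (q-values, adjusted p-values) of up to 0.0499 and 0.05. Footprints carry 0.01 in every row and were used by position. The longer of the 2 peak lists of each library was used.

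Genes came from GENCODE M21. The windows were 50 kb flanks, open starts had a peak within 500 bp, shared peaks overlapped by 1 bp, and distal peaks lay over 1000 bp from every start. All 7 genes were named, each with its strongest start-site peak and 2 strongest distal peaks, and of each other list the genes with the highest and lowest start-site signal. Members and lists were chosen with earlier results of these data known. Some listed tissue markers are not reported here. With 2 libraries of 1 group, no test was run and no SD is given. Sequence was read with samtools 1.23.1 and pysam 0.24.0, and values were computed in python 3.11.15 with numpy 2.4.6 and pandas 2.3.3, with code tested on simulated data. Printed start-site sequences stop before the transcript, and the weaker distal sequences are not printed. Alternatives covered windows, lists, overlaps, motif widths and each replicate alone.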

Additional observations from a re-analysis of the deposited data

How the results depend on the processing

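The count of 5 Sox genes open in both replicates ran from 4 to 6 over the start windows of 100, 1000 and 2000 bp, the annotated start alone, the shorter list, the strongest 50% of peaks and equal numbers of peaks, and was 5 in replicate 2 alone and 7 in replicate 1 alone. The mean of 82.5 peaks in the windows became 40 with the shorter list and 43 with the strongest 50% of peaks, and the replicates ranged from 73 to 92. The pooled share of peaks found in both replicates, 63.6%, became 48.5% under a 50% reciprocal overlap, and ran from 56.5% to 72.6% by replicate. Without the Sox1 window, a choice made after seeing the data, these values were 64.5 peaks and 65.1%. The mean share of peaks with a SOX core motif, 13.8%, became 18.8% over the peak as listed and 20.1% with the shorter list. Among the 14 other motifs, SP and KLF (8.46% and 12.5%, against 7.23%), RBPJ (7.23% and 1.72%, against 4.23%) and E-box moved under both settings. A move here is a change of at least the SD over the replicates. That SD is smaller than the difference between them, so a move can lie within that difference. The POU, SOX with POU, longer NFI and CTCF motifs moved under 1 of the settings. TTGGCA, homeobox and GLI moved under neither, and the SOX dimer, CRE, NRF1 and RFX motifs stayed at 0. Ordering by start-site signal placed 4 to 7 of the 7 genes as in the mean of the replicates when 1 replicate was used. Peaks at Sox3 and Sox14 depend on replicate 1, with 7 and 13 there against 1 and 3 in replicate 2. Their means of 4 and 8 became 2 and 2.5 with equal numbers of peaks and 0.5 and 1 with the strongest 50% of peaks. What sets these differences was not tested. No paired analysis was possible because there is 1 group. Read depth, which limits what either list can hold, is unknown here.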
